A study of Mus musculus with 30 samples.

Results

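The regions described here carried a peak of the chromatin remodeler CHD8 in untreated mouse embryonic stem cells, with no peak of CHD4, SMARCA4 or SMARCA5 and no CTCF peak nearby. Peaks on chromosomes 1 to 19 and X from the 8 untreated (0 h) remodeler lists were merged wherever they overlapped by at least 1 bp, and merged regions within 1 kb of a 0 h CTCF peak were dropped. Regions with a peak in both CHD8 lists and in none of the other 6 lists were kept. This gave 692 CHD8-only regions of 158468 merged regions, and of 23045 that had a peak in both CHD8 lists. The remaining 22353, which also had a peak of at least 1 other remodeler, are called the other CHD8 regions below. The members were selected on the 0 h peak lists, so their 0 h peak values are given as a description and support nothing.

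All samples came from E14, a mouse embryonic stem cell line, carrying the genotype CTCF AID, in which the auxin-inducible degron tag makes CTCF degradable by the auxin IAA. CTCF and SMC1A, a subunit of the cohesin ring, were measured in that line. Each remodeler was measured in a line of its own: CTCF AID and biotin-CHD8, and likewise biotin-CHD4, biotin-SMARCA4 and biotin-SMARCA5. A difference between remodelers therefore cannot be told apart from a difference between these lines and their tagged proteins. Cells were left without IAA (0 h) or treated with it (12 h), and all were grown on gelatin in a serum-free medium with leukemia inhibitory factor, the MEK inhibitor PD0325901 and the GSK3 inhibitor CHIR99021. Each remodeler has 2 libraries per time, and CTCF and SMC1A have 1. Nothing in the labels says that the 2 replicates came from separate cultures, so p-values measure only the spread between these libraries.

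CHD8 belongs to the CHD family, whose members use ATP to slide or evict nucleosomes and carry chromodomains. It is known as a partner of beta-catenin that restrains Wnt target genes, as a repressor of p53 targets, and as one of the genes most often mutated in autism. CHD4 is the ATPase of the NuRD complex, SMARCA4 (BRG1) that of the BAF complexes, and SMARCA5 (SNF2H) that of the ISWI complexes. CHIR99021 stabilises beta-catenin, so the Wnt pathway is active in this medium. The files hold no expression values, so the cell type could not be checked by marker expression.

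Sequences from the highest-ranking member, from 3 sets of members that resemble one another and from a zinc finger gene promoter are shown first. The rule did not use sequence. Most members are in none of these sets, which hold 51, 21 and 7 of the 692. The sequences were read from the RefSeq GRCm38.p6 genome (mm10 coordinates), 5′ to 3′, on the strand given. In the first set, family A, capitals mark the 8-letter word AAGATGGC, the core of the site bound by the zinc finger protein YY1. The windows lie at chrX:104622979-104623086 (minus strand, an intron, nearest start site Zdhhc15), chr15:55683545-55683652 (plus strand, an intron, nearest start site Mtbp) and chr15:103412065-103412172 (minus strand, an intron, nearest start site Gtsf1).
Zdhhc15 family A: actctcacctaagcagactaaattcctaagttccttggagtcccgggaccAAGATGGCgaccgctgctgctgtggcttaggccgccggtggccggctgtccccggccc
Mtbp family A: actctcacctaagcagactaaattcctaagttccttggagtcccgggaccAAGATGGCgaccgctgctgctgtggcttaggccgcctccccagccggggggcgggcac
Gtsf1 family A: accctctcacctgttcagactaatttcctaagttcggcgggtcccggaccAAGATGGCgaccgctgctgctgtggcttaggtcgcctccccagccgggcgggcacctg
Aligned on the capitals without gaps, the Zdhhc15 and Mtbp windows were identical at 92 of 108 positions, the Mtbp and Gtsf1 windows at 69, and the Zdhhc15 and Gtsf1 windows at 57.

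In family B the capitals mark AGGTAGCCCGGG, a 12-letter word found in all of its windows and chosen from them for being the most frequent. The windows lie at chr3:91096840-91096951 (minus strand, intergenic, nearest start site 9130204L05Rik) and chr6:67007729-67007840 (plus strand, within 1 kb of the non-coding gene Gm36816 and 29286 bp from the start site of the p53 target Gadd45a).
9130204L05Rik family B: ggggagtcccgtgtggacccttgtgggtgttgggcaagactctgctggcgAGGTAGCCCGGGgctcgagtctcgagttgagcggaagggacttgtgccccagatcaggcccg
Gadd45a family B: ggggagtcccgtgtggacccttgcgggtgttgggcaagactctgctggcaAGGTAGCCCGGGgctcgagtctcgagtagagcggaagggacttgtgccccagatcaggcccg
These windows, on different chromosomes, were identical at 109 of 112 positions. In family C the capitals again mark AAGATGGC, in a different surrounding sequence. The windows lie at chr6:29670114-29670221 (minus strand, intergenic, nearest start site Tspan33) and chr14:31859790-31859897 (plus strand, intergenic, nearest start site Ankrd28).
Tspan33 family C: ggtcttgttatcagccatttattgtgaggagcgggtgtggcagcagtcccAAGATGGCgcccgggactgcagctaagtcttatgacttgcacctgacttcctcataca
Ankrd28 family C: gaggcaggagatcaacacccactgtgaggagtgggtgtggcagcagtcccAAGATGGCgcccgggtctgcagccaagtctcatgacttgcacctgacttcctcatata

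The member with the highest rank at 0 h is shown over 300 bp around its summit, at chr17:16951174-16951473 (plus strand), 127 bp from the start site of the non-coding gene BC002059 and 112688 bp from the nearest protein-coding start site, Zfp960. The stretch of the Gm49359 promoter, in a zinc finger gene cluster, that holds no annotated exon lies at chr13:62466554-62466706 (minus strand). Capitals mark CCGGAA, the core word of ETS factors, on either strand.
Zfp960: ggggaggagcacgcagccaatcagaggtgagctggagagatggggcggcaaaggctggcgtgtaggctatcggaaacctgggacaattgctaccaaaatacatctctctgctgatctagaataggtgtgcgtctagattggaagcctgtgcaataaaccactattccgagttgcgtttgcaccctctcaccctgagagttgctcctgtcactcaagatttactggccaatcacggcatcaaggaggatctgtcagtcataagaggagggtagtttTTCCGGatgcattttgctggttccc
Gm49359: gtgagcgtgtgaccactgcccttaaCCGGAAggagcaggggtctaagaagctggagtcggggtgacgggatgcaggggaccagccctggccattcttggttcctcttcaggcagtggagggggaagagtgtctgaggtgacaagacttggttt

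The deposited lists give peaks and no read depth, so the number of peaks stands as a rough guide to calling depth. Without IAA, 51943 and 40880 CHD8 peaks were listed in replicates 1 and 2, and with it 51840 and 42297, while the other remodeler lists ran from 55488 to 187294. Both replicate 2 lists of CHD4 stood apart in their narrow peaks, with median widths of 119 bp at 0 h and 94 bp at 12 h, against 433 and 475 bp in replicate 1. The CTCF list fell from 29934 peaks at 0 h to 2248 at 12 h, and the SMC1A list from 16724 to 10. A site without a listed peak may hold signal below the authors' threshold, so "CHD8-only" and "lost" below refer to called peaks.

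CHD8-only regions mostly ranked lower in the CHD8 0 h lists than the other CHD8 regions, which describes members chosen on these lists. A peak's percentile is its rank by −log10 p within its own list, from 0 for the weakest to 100 for the strongest. The median percentile of members was 43.3 in replicate 1 and 32.6 in replicate 2 at 0 h, against 69.6 and 60.8 for the other CHD8 regions. The authors' fold enrichment over local background had a median of 4.32 and 3.86 in members, with highest values of 28.7 and 23.0. Members were also narrower, with a median width of 461 bp against 1669 bp, which follows in part from the merging of more lists in the other regions.

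After 12 h of IAA a CHD8 peak was still called at 466 members (67.3%) in replicate 1 and 358 (51.7%) in replicate 2, a mean of 59.5% ± 11.04 (SD, n = 2). Of the 692 members, 317 (45.8%) had a peak in both CHD8 12 h lists, 190 in 1 of them and 185 (26.7%) in neither. Over all 23045 regions with CHD8 in both 0 h lists, 84.2% had a peak in both CHD8 12 h lists. The exact Clopper-Pearson 95% interval for the members' share was 42.0% to 49.6%, which lies far below that background and covers counting error over regions only. At the members moved by 100 kb in either direction, CHD8 peaks were present in 7.66% and 5.35%.

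The other remodelers were called at fewer members at 12 h, as the choice of members favours, since the rule had removed every region with one of their 0 h peaks. CHD4 had a 12 h peak at 26.2% and 13.3% of members in its 2 libraries, SMARCA4 at 17.8% and 28.3%, and SMARCA5 at 6.94% and 6.21%. At the moved sites the values were 11.1% and 6.36% for CHD4, 12.1% and 14.2% for SMARCA4, and 6.58% and 5.71% for SMARCA5. CHD4 and SMARCA4 were thus above the moved sites in both of their libraries, and SMARCA5 was close to them. At the other CHD8 regions each of these libraries lay between 67.9% and 92.96%. Counting only members with a peak in both 12 h lists, CHD4 was present at 57 members (8.24%) against a background of 81.7%, SMARCA4 at 79 (11.4%) against 84.5%, and SMARCA5 at 8 (1.16%) against 58.5%. These backgrounds contain regions that already had those remodelers at 0 h, which the rule forbids in members, so nothing is read from the gap.

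**Figure D1:**
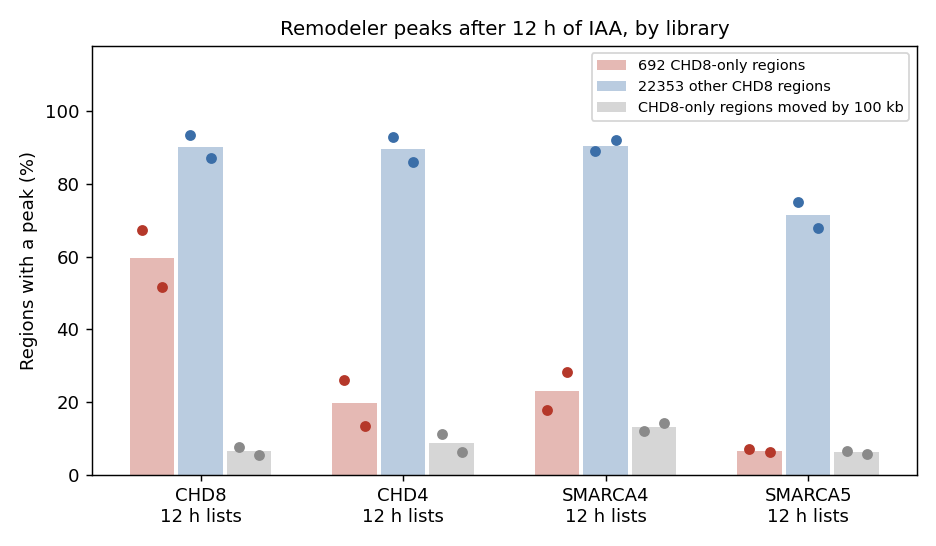
Share of regions with a remodeler peak (%, y axis) after 12 h of IAA for each remodeler (x axis). Points are the 2 libraries and bars their mean, for the 692 CHD8-only regions (red), the 22353 other CHD8 regions (blue) and members moved by 100 kb (grey). The red CHD8 points, at 67.3% and 51.7%, lie above the red points of the other remodelers, which reach at most 28.3%.

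Among the 8 libraries at 12 h, the 2 of CHD8 were higher at the members than all 6 of the other remodelers, by 43.1 points (59.5% against 16.4% ± 9.40, SD, n = 6). In the two-sided exact permutation test over all 28 ways to pick 2 of 8 libraries this gave p = 0.0357, the smallest p the design allows. Adjusted over the 3 tests of the libraries by the Benjamini-Hochberg method it was 0.107 and did not pass 0.05. Passing would have required all 3 tests to reach that smallest p. The rule required CHD8 and barred the others at 0 h (100% against 0% of members), so this direction is fixed in large part by the selection and nothing is read from it. The excess was 22.4 points when only the replicate 2 list of CHD8 was required at 0 h. It was 12.7 points when only that of replicate 1 was required. In both cases all 8 lists still entered the merge, and the 6 other lists still barred a region. The rule was also applied to each other remodeler, giving 11548 CHD4-only, 3580 SMARCA4-only and 611 SMARCA5-only regions, and the share of these kept by their own remodeler at 12 h was compared. CHD4 kept 54.3% and 40.6%, SMARCA4 73.2% and 65.4%, and SMARCA5 42.6% and 28.3%. CHD8, at 67.3% and 51.7%, lay within this range and differed from the other 3 by 8.80 points (exact permutation p = 0.500, adjusted p = 0.500). When only the replicate 1 list of the defining remodeler was required at 0 h, the direction turned, to −2.83 points.

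Set against the other regions of the same remodeler, CHD8-only regions were kept less often in both libraries, at a log2 odds ratio of −2.81 and −2.66. The corresponding values were −3.28 and −2.79 for CHD4, −2.75 and −2.94 for SMARCA4 and −3.45 and −3.45 for SMARCA5. The mean of CHD8 was 0.38 higher than that of the other 3 (−2.73 ± 0.11, n = 2, against −3.11 ± 0.32, n = 6, SD), which did not exceed the spread between libraries (exact permutation p = 0.214, adjusted p = 0.321). Lower retention in regions held by a single remodeler was thus measured for all 4 remodelers in all 8 libraries.

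Retention followed rank. Members with a mean 0 h percentile under 10 kept a CHD8 peak in 34.2% and 13.2% of cases in the 2 libraries (38 regions), those from 40 to 50 in 75.7% and 55.3% (103 regions), and those from 60 to 70 in 100% and 87.5% (64 regions). All 14 members at or above the percentile of 80 had a peak in both lists. In every rank class below 60 the members were kept less often than the other CHD8 regions in both libraries. In the classes from 60 to 80 this held in replicate 2 only, since replicate 1 was at 100% in members. Other CHD8 regions weighted to the members' mix of rank classes would be kept in 84.6% and 72.2%, against 67.3% and 51.7% measured in members. These weights leave the difference in width in place, and its part was not tested. No member above a mean percentile of 53.9 was lost from both lists.

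**Figure D2:**
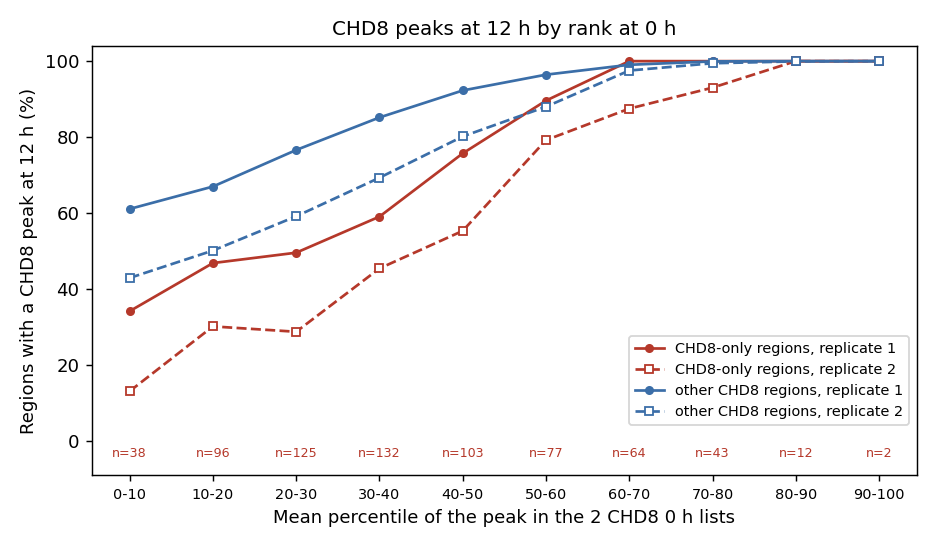
Share of regions with a CHD8 peak at 12 h (%, y axis) by the mean percentile of the region's peak in the 2 CHD8 lists at 0 h (x axis, classes of 10), for CHD8-only (red) and other CHD8 regions (blue) in each 12 h library. The red lines run from 34.2% and 13.2% in the lowest class to 100% at the top, and the number of members in each class is printed below.

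The 12 highest-ranking members all kept CHD8 peaks at 12 h, with fold enrichments that moved in both directions. The region next to BC002059 (nearest protein-coding gene Zfp960) had fold enrichments of 24.3 and 22.3 at 0 h and 21.0 and 19.1 at 12 h. The region at the start site of Gon4l, which encodes a transcriptional co-regulator, had 26.3 and 23.0 at 0 h and 37.4 and 20.7 at 12 h. At Fgfr1op, which encodes a centrosomal protein, the values were 23.2 and 18.3 at 0 h and 28.3 and 19.7 at 12 h. At these 3 regions the peaks stayed among the stronger ones of each CHD8 list at both times. The family B region near 9130204L05Rik had 28.7 and 17.04 at 0 h and 24.4 and 16.04 at 12 h, with no other remodeler listed there at either time. The intergenic region nearest to Zbtb40, a zinc finger gene 56291 bp away, had 14.9 and 12.5 at 0 h and 15.5 and 16.5 at 12 h, also with no other remodeler. The region nearest to Zfp369 was lower in both replicates at 12 h, from 16.7 and 14.1 to 10.2 and 7.87. The region nearest to Zfp873 was higher in both, from 12.1 and 11.9 to 28.6 and 14.1. Zdhhc15, in family A, had 14.8 and 14.5 at 0 h and 13.9 and 15.7 at 12 h. The other 4 of the 12 highest members, Gm49359, Dnajc30, Vps28 and Zfp458, are described with their genes below. All 12 had a peak in both CHD8 12 h lists, and 9 of the 12 had a peak in at least 1 12 h list of another remodeler. Over all members the latter share was 54.6%, and its value at moved sites was not computed.

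Dnajc30, which encodes a mitochondrial J-domain protein, had fold enrichments of 17.03 and 10.02 at 0 h and 13.6 and 9.75 at 12 h at its start site. Vps28, a subunit of the ESCRT-I complex that sorts membrane cargo, had 12.1 and 8.73 at 0 h and 11.3 and 7.45 at 12 h. Both had a 12 h peak in 1 list each of CHD4 and SMARCA5, and SMARCA4 was called in 1 list at Dnajc30 and in both at Vps28. Members that gained both 12 h lists of another remodeler were led by Gon4l and Vps28 (both SMARCA4), the regions nearest to Gm14410 and Gm5141 (both SMARCA4), and a region 29056 bp from 6720489N17Rik, where both lists of CHD4 and of SMARCA4 had a peak.

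The members lost from both CHD8 12 h lists were weaker at 0 h. The highest lay in an intron of Snx11, a sorting nexin, with fold enrichments of 6.81 and 4.09 at 0 h and no remodeler peak at 12 h. Next came intergenic regions nearest to Cysltr2, a leukotriene receptor (5.87 and 5.03), Hace1, a ubiquitin ligase (7.11 and 4.50), and Gata6, an endoderm regulator 107634 bp away (5.56 and 5.14), then an intron region near Pnma1 (3.58 and 5.03). Over the 185 lost members no fold enrichment exceeded 7.11 in replicate 1 or 5.95 in replicate 2. They include 7 of the 68 members at protein-coding start sites.

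At 12 h, 133 members (19.2%) still met the CHD8-only condition, with a peak in both CHD8 lists and in no other remodeler list. Another remodeler was called in at least 1 12 h list at 378 members (54.6%), and 99 members (14.3%) had no remodeler peak at all. Single 12 h lists of the other remodelers had a peak at 5.71% to 14.2% of moved sites. The share of moved sites with a peak in any of these lists was not computed, so nothing is read from the 54.6%. Applying the whole rule to the 12 h lists gave 547 regions. Of these, 131 coincided with members, which is 23.9% of the 12 h regions and 18.9% of the 0 h members. CTCF and SMC1A had no peak at any member at either time (0 of 692, which allows a share of up to 0.532% by the exact 95% interval). For CTCF at 0 h that follows from the rule, while SMC1A was not used by it. SMC1A had a 0 h peak at 7.78% of the other CHD8 regions, which are wider, and at 0.939% of moved sites. At 12 h SMC1A had a peak at 0.0179% and CTCF at 0.00895% of the other CHD8 regions. Nothing is therefore read from their absence at members at 12 h.

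The distance limit of the rule removed regions in which CHD8 peaks were seldom listed at 12 h where CTCF had overlapped. Of the 64 regions that met every other condition but were overlapped by a 0 h CTCF peak, 3 (4.69%, exact 95% interval 0.977% to 13.1%) had a peak in both CHD8 12 h lists. Replicate 1 had a peak at 6 of them and replicate 2 at 5. Of the 37 with a CTCF peak close by but not overlapping, 18 (48.6%) were kept in both lists, and of members 42.1% (gap up to 5 kb), 38.9% (up to 20 kb) and 53.1% (beyond). The median 0 h percentile was 30.2 where CTCF overlapped, 36.8 in the next class, and 31.3, 33.7 and 42.5 in the member classes by rising gap. The part of rank in the difference was not tested. Among regions with a percentile from 20 to 50, both lists kept 2 of 38 where CTCF overlapped and 5 of 20 in the next class. In the member classes they kept 27 of 77, 44 of 140 and 60 of 143. Just outside the 1 kb limit (dropped, gaps over 500 bp) 47.8% of 23 regions were kept in both lists, and just inside it 31.6% of 19. On the other limit, regions with exactly 1 of the 6 other 0 h lists numbered 886, of which 53.3% were kept, and 529 of them had a CHD4 list.

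**Figure D3:**
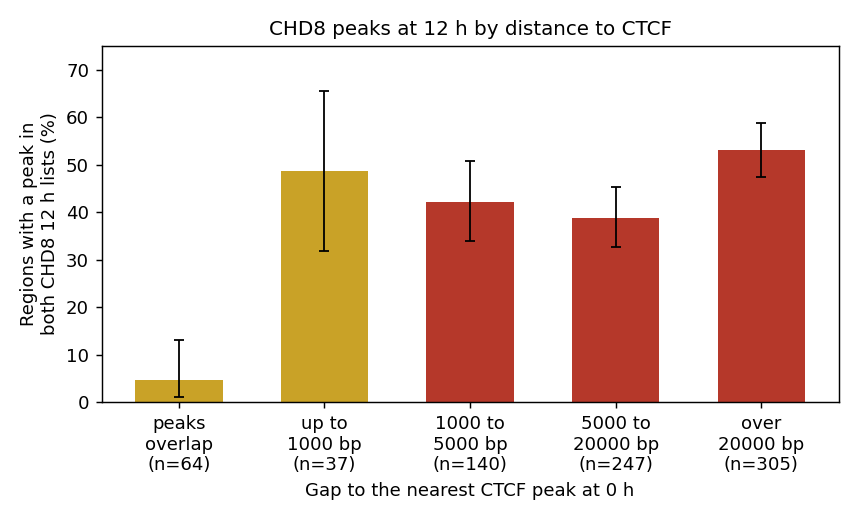
Share of regions with a peak in both CHD8 12 h lists (%, y axis) by the gap to the nearest 0 h CTCF peak (x axis), for regions meeting the rest of the rule. Bars are shares with exact 95% intervals over regions, yellow for regions the rule drops and red for members. The bar for overlapping CTCF peaks stands at 4.69%, against 38.9% to 53.1% in the other classes.

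Members lay mostly away from genes' start sites. Of the 692, 68 (9.83%, 7.71% to 12.3%) had their midpoint within 1 kb of a protein-coding start site, against 39.1% of the other CHD8 regions. Introns held 43.1% of members and 27.4% of the others, and intergenic sequence 33.8% and 24.1%. The median distance to a protein-coding start site was 15368 bp against 5477 bp. A further 39 members lay within 1 kb of the start of another kind of gene. Processed pseudogenes, intronless copies of messenger RNAs, made up 15 of these 39, which is 2.17% of members (1.22% to 3.55%) against 0.752% of the other CHD8 regions. MicroRNA genes made up 7 of them (1.01%, against 0.291%), and lincRNA genes another 7 (1.01%, against 1.59%). The CHD4-only, SMARCA4-only and SMARCA5-only regions had smaller shares at protein-coding start sites than CHD8-only regions, at 2.64%, 2.07% and 4.26%. These shares were compared by their intervals alone.

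Chromosome X held 41 members (5.92%, 4.28% to 7.95%) against 2.41% of the other CHD8 regions. Among members at protein-coding start sites it held 15 of 68 (22.1%, 12.9% to 33.8%), against 3.68% for the other CHD8 regions at start sites and 4.36% of all protein-coding genes. In the CHD4-only and SMARCA4-only regions at start sites the shares were 2.62% and 2.70%. Away from start sites X held 4.17% of members (2.74% to 6.05%), 1.59% of the other CHD8 regions, 0.969% of CHD4-only and 3.57% of SMARCA4-only regions, the last within the members' interval. Of these 26 members on X away from start sites, 10 were in family A and 1 in family B. The share without these families was not computed, so no excess on X away from start sites is read apart from them. Each remodeler list had between 0.737% and 2.12% of its peaks on this chromosome, with the CHD8 lists between 1.90% and 2.12% and the SMARCA4 lists up to 2.02%. The 15 were Gripap1, 1110012L19Rik, Tro, Lage3, Irs4, Nxt2, Magee2, Col4a5, Taf9b, Rtl8a, Smim10l2a, Rtl8b, Tmsb15b2, Sh3bgrl and Mum1l1.

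Of these 15 X-linked start sites, 11 (73.3%) had a CHD8 peak in both 12 h lists and the other 4 in 1. Among the other CHD8 regions at start sites the share in both lists was 93.5% on X and 95.6% on the autosomes, with median 0 h percentiles of 77.9 and 85.4 against 58.5 for the 15. Gripap1, which encodes an endosomal protein of neurons, had fold enrichments of 13.6 and 13.2 at 0 h and 9.33 and 5.22 at 12 h. Tro, which encodes the adhesion protein trophinin, had 12.7 and 9.32 at 0 h and 10.2 and 7.57 at 12 h. Rtl8a and Rtl8b, genes derived from a retrotransposon gag, had 5.05 and 5.79, and 4.33 and 5.47, at 0 h. At 12 h they had 7.63 and 5.15, and 4.52 and 4.24. Of these 4 genes, Gripap1 and Tro were lower in both replicates at 12 h, while Rtl8a and Rtl8b were higher in replicate 1 and lower in replicate 2. On the autosomes 33 of 53 start site members were kept in both lists, and over all 68 the shares were 83.8% and 70.6% in the 2 libraries, with a median 0 h percentile of 53.4 against 35.9 for members elsewhere. Members elsewhere were at 65.5% and 49.7%.

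**Figure D4:**
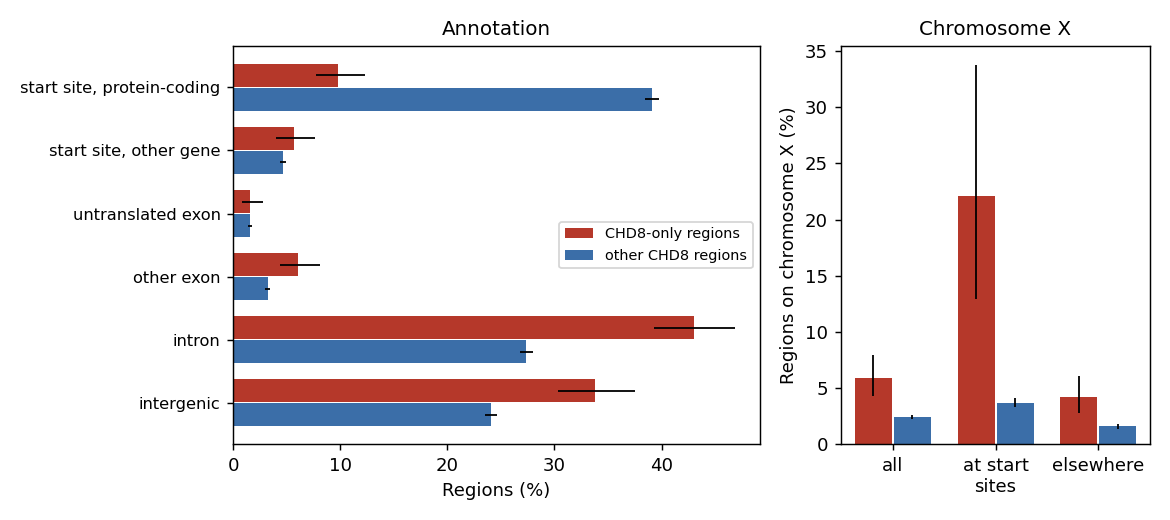
Left, share of regions (%, x axis) in each annotation class for CHD8-only (red) and other CHD8 regions (blue). Right, share of regions on chromosome X (%, y axis) for all regions, those at protein-coding start sites and the rest, with exact 95% intervals over regions as lines. The red bar at start sites on chromosome X stands at 22.1% against 3.68%.

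Members also lay in 2 stretches with zinc finger genes, whose limits were drawn from the members after they had been seen. KRAB zinc finger genes, which encode repressors of transposable elements, lie in tandem arrays in the mouse. On chromosome 13, between positions 62382795 and 67724192, lay 12 members, 7 of them at protein-coding start sites, and 11 of the 12 were in both CHD8 12 h lists. Their median 0 h percentile was 76.0, and members with a percentile from 70 to 80 had a peak in both lists in 93.02% of cases. On chromosome 2, between 175010073 and 177272563, lay 6 members, 3 at start sites, 5 of them in both lists. These stretches held 81 and 17 other CHD8 regions. In bins of 1 Mb the most members, 7, lay on chromosome 10 from 42 Mb, nearest to Armc2, Foxo3, Afg1l, Scml4 and Nr2e1, none of which has a Zfp name, and the next most, 6, on chromosome 13 from 62 Mb. Genes at or nearest to these members include Zfp458, Gm49359, Gm5141, Gm3604, 6720489N17Rik and Platr25 on chromosome 13 and Gm14305, Gm14408 and Gm14444 on chromosome 2. Zfp458 had fold enrichments of 14.8 and 11.8 at 0 h and 8.01 and 5.87 at 12 h, lower in both replicates. Gm49359, whose promoter is printed above, had 19.99 and 14.5 at 0 h and 11.6 and 8.35 at 12 h, also lower in both. Platr25 had 9.73 and 9.58 at 0 h and 13.0 and 13.2 at 12 h, higher in both. Among all start site members 13 of 68 (19.1%) belonged to genes with a predicted-gene (Gm or Rik) name, against 2.89% in the other CHD8 regions, and 4 (5.88%, 1.63% to 14.4%) to genes with a Zfp name, an interval that contains the 2.98% of the other CHD8 regions.

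A few other start site members departed from the rest. At Mst1, which encodes macrophage-stimulating protein, fold enrichment was 5.53 and 4.80 at 0 h and 14.1 and 9.75 at 12 h, higher in both replicates. At Atp2b4, a plasma membrane calcium pump, it was 8.73 and 6.37 at 0 h and 12.8 and 12.5 at 12 h. At Cog6, a subunit of a Golgi complex, it was 3.09 and 2.63 at 0 h, and at 12 h it was 43.0 in replicate 1 with no peak in replicate 2. These 3, and Tro, Rtl8a, Rtl8b and Platr25 above, were picked after their values had been seen. Fold enrichments of different lists are each relative to their own background and are set side by side without a test.

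The 68 start site members reached 67 of 21755 protein-coding genes, a small share of all genes, so nothing is read from a count of 0 in lists of at most 32 genes. None of the genes in 11 lists had a CHD8-only region within 1 kb of its start site. The other CHD8 regions, with 8745 at start sites, reached 8 of 26 Wnt targets, 14 of 25 p53 targets, 17 of 30 autism risk genes, 13 of 24 pluripotency genes, 11 of 30 lineage regulators, 10 of 26 histone genes, 20 of 30 cell cycle genes, 8 of 30 neuronal adhesion and synapse genes and 17 of 32 chromatin remodeler subunits. Of 10 stem cell markers the other CHD8 regions reached 3 start sites, and of 10 markers of other cell types 3. By nearest gene at any distance the lists drew between 0 and 3 members each. The p53 targets drew 3: Gadd45a (the family B region printed above), Btg2 at 4417 bp and Ccng1 at 2152 bp. Gadd45a had a peak in both 12 h lists, while Btg2 and Ccng1 were lost from both.

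The X-linked RNA helicase gene Ddx3x, on the autism list, was nearest to 2 members, at 1755 and 35737 bp, and both of these kept at least 1 CHD8 12 h peak. The only Wnt target was Myc, at 783092 bp, with no CHD8 peak at 12 h. Pluripotency genes drew Zfp42 (7369 bp) and Fbxo15 (21725 bp), lineage regulators drew Pax2 and Gata6, cell cycle genes Plk1, and remodeler subunits Mta3. The histone and the neuronal adhesion and synapse lists drew no member. In each list the members' share, at most 0.434%, had an interval that contained the share in the other CHD8 regions, which lay between 0.0626% and 0.452%.

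Sequence was described over 300 bp around the replicate 1 summit. The word AAGATGGC of YY1, searched on both strands, was present in 93 members (13.4%, 10.99% to 16.2%), in 5.59% of the other CHD8 regions, in 2.10% of moved windows and in 2.88% of RefSeq promoters. Of the 93, 45 were family A members, and without families A and B the share was 7.74% (5.76% to 10.1%). The word was also in 6 of the 7 windows of family C, and the share without that family too was not computed. The ETS word CCGGAA was in 14.5% of members, 19.3% of the other CHD8 regions, 3.34% of moved windows and 15.2% of promoters. At start sites it was in 14.7% of members (7.28% to 25.4%) against 29.4% of the other CHD8 regions. Elsewhere, where 624 of the 692 members lie, it was in 14.4% (11.8% to 17.4%). That interval contains the 12.8% of the other CHD8 regions there. The NRF1 word GCGCATGCG was in 3.32% of members, 2.18% of the others, 0.218% of moved windows and 1.81% of promoters. In CHD4-only regions AAGATGGC was in 3.65%, CCGGAA in 4.75% and GCGCATGCG in 0.0866%. CTTTGAT, the word of the TCF/LEF factors that carry beta-catenin, was in 3.18% of members, 3.29% of the other CHD8 regions, 5.66% of moved windows and 3.72% of promoters. AGGGGGC, a core word of CTCF, was in 6.36%, 9.55%, 3.48% and 10.5% of these. A match is a description of letters, not a bound site.

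Members with AAGATGGC were called at 12 h in 82.8% and 58.1% in the 2 CHD8 libraries, and members without it in 64.9% and 50.8%. Their median 0 h percentiles were 47.3 and 34.8, so rank moved with the word, and its part in the result was not tested. Members with CCGGAA were at 74% and 60%, those without at 66.2% and 50.3%. The AAGATGGC word lay within 50 bp of the summit in 42 of the 93. Median GC content was 53% in members, 56.7% in the other CHD8 regions and 45.3% in moved windows. Away from start sites the other CHD8 regions were at 52.7%, close to the 52.8% of members there.

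Repeated sequence made up part of the members. Genome letters that the RefSeq file marks as repeats covered over 50% of the window in 120 members (17.3%, 14.6% to 20.4%), against 6.94% of the other CHD8 regions, 22.2% of moved windows and 50.9% of CHD4-only regions. Members were linked when their windows shared at least 20 words of 12 letters, and this placed 124 of 692 in 15 families. Family A had 51 members (7.37%) on 17 chromosomes, 10 of them on X, with a median distance of 106849 bp to a start site. The word AAGATGGC was in 45 of its 51 windows. Family B had 21 members (3.03%) on 9 chromosomes. The word AGGTAGCCCGGG was in all 21, which follows from its choice as the most frequent word of these windows. Family C had 7, and the promoter set on chromosome 13, with Gm49359, Gm5141, Gm3604, Platr25 and 6720489N17Rik, had 6.

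Families A and B were wholly repeat-marked by the median, and sequence recurred within the window in 38 of 51 and 16 of 21 members, at median spacings of 212 and 208 bp. No repeat annotation was used here, and the families are left unnamed. Windows like family A occurred in 148 (0.662%) and like family B in 41 (0.183%) of the other CHD8 regions. In the 1378 moved windows they occurred in 1 (0.0726%) and 2 (0.145%). For family B the interval at moved windows, 0.0176% to 0.523%, contains the share in the other CHD8 regions. In CHD4-only regions they occurred in 42 (0.364%) and 14 (0.121%), and neither occurred in SMARCA4-only or SMARCA5-only regions. The families were defined after the windows had been seen, so these counts carry no test. How reads that map to several places were treated is not given in the sources used here, and its part in peaks at repeated copies was not tested.

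In family A, CHD8 was called at 45 of 51 (88.2%) and 28 of 51 (54.9%), CHD4 at 11.8% and 15.7%, SMARCA4 at 0% and 3.92%, and SMARCA5 at 1.96% in both libraries. In family B, CHD8 was called at 17 and 12 of 21, CHD4 at 14.3% and 4.76%, SMARCA4 at none, and SMARCA5 at 4.76% in both libraries. Without both families CHD8 was at 65.2% and 51.3% of 620 members. CHD4 was at 12.5% in both libraries in the 72 members of both families and at 27.7% and 13.4% of the 620 others, close to each other in replicate 2. For SMARCA4 the shares were 0% and 2.78% in the 72 members of both families, and 19.8% and 31.3% in the 620 others.

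Copies of the leading member of each family elsewhere in the genome, at least 150 bp long and 80% identical and over 1 kb from CTCF, were checked for peaks. Of 2048 copies of family A outside the members, CHD8 was called at 12.9% and 5.66% at 0 h and 15.1% and 4.98% at 12 h. CHD4 was called at 5.57% and 9.52% at 0 h and 5.57% and 4.69% at 12 h. At the members moved by 100 kb CHD4 had 10.3% and 10.2% at 0 h and 11.1% and 6.36% at 12 h. CHD8 had 7.51% and 5.49% there at 0 h, and 7.66% and 5.35% at 12 h. On family A copies only replicate 1 of CHD8 stood clearly above the moved sites. No binding of CHD4 to this sequence is read from its shares. On these copies SMARCA4 and SMARCA5 were each at or below 1.22% in all their libraries. Of 4206 copies of family B outside the members, CHD8 was called at 2.31% and 1.28% at 0 h and CHD4 at 2.31% and 3.61%. All of these shares lay below those at the moved sites. CHD8 and CHD4 overlapped in range on both families, while SMARCA4 and SMARCA5 lay below both on each of them.

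**Figure D5:**
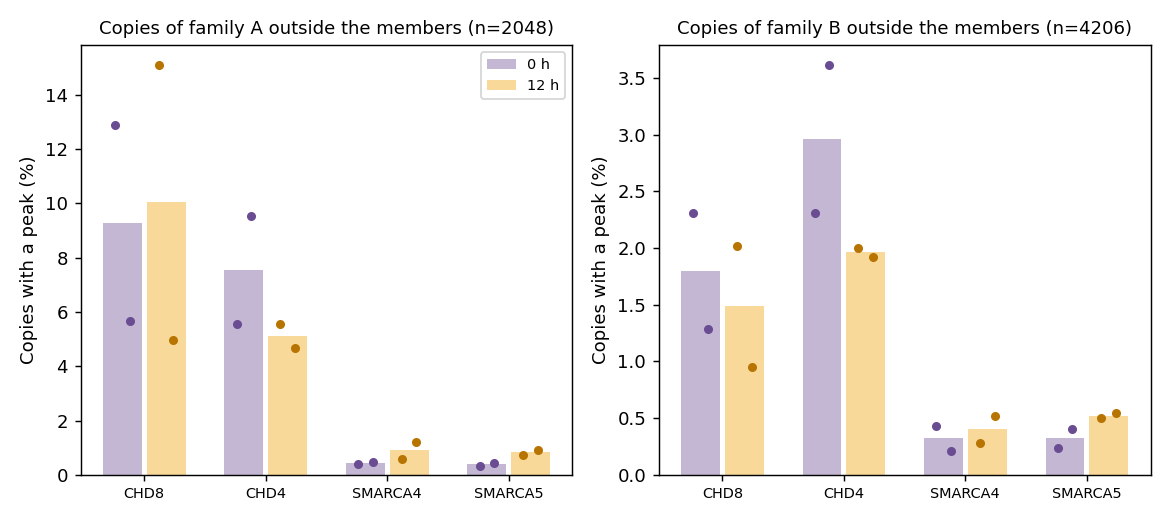
Share of genome copies with a peak (%, y axis) in each remodeler's lists (x axis) at 0 h (purple) and 12 h (orange), for copies of family A (left) and family B (right) that are not members. Points are the 2 libraries and bars their mean. On family A the CHD8 points range from 4.98% to 15.1% and the CHD4 points from 4.69% to 9.52%.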

How the data were processed

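Chromatin immunoprecipitation followed by sequencing (ChIP-seq) was analysed from 20 deposited peak lists, 1 per sample; 10 input samples were not analysed here. Cells were crosslinked and their chromatin sheared by sonication before immunoprecipitation, per the labels' protocols. The submitters' processing notes name Trim Galore, Bowtie2, MACS2 and deepTools and the builds mm10 and hg38, with no roles or versions. Column 7 of the deposited lists was read as the authors' fold enrichment (a ratio), columns 8 and 9 as the authors' −log10 p and −log10 q, and column 10 of the deposited lists as the summit's distance from the peak start. All 1428564 peaks checked ended within GRCm38 chromosome lengths. Annotation was GENCODE M21 basic (GRCm38), with RefSeq promoters for comparison.

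A region was occupied in a list when a peak overlapped it by at least 1 bp. Libraries were the units of 3 two-sided exact permutation tests with Benjamini-Hochberg adjustment. Exact Clopper-Pearson 95% intervals treat regions as independent. The members and lists were chosen with earlier results of these data known. Named regions are the 12 highest by mean 0 h percentile, the 8 highest at start sites, the 5 highest lost and the 5 highest with both 12 h lists of another remodeler. Sequence families were found with 12-letter words and copies with blastn 2.17.0+. The region and occupancy steps were tested on simulated lists. Letters marked as repeats are the lower-case letters of the RefSeq genome file. pandas 2.3.3, numpy 2.4.6 and scipy 1.17.1 were used.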

Additional observations from a re-analysis of the deposited data

How the results depend on the processing

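The number of members depended strongly on the calls. It was 256 with a −log10 q of at least 5 in the lists of the defining remodeler, 445 with no other remodeler within 1 kb, 2912 when every list was limited to its 40000 highest peaks, and 1609 to 3083 when only 1 of its 0 h lists was required (1609 without replicate 1 and 3083 without replicate 2). The share at protein-coding start sites was 15.6% with the q limit, 17.9% with equal lists, 16.04% within 2.5 kb, 15.5% for start sites of all genes, and 6.42% to 7.02% with 1 CHD8 list. The share with a CHD8 peak at 12 h was 84.96% with the q limit. It ran from 26.6% to 67.3% when 1 CHD8 12 h library was left out or 1 CHD8 0 h list was not required. It was 35.2% with the 0 h replicate 1 list not required and 26.6% with that of replicate 2 not required.

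The excess of CHD8 over the other remodelers at 12 h kept its direction in all 19 alternatives, from 12.7 to 68.8 points, with adjusted exact permutation p from 0.107 to 0.429. Each alternative still required CHD8 and barred the others at 0 h, so nothing is read from this direction. Leaving out a 12 h library or not requiring a 0 h list gave 12.7 to 50.9 points. The 12.7 came with the CHD8 0 h list of replicate 2 not required, and 22.4 with that of replicate 1 not required. Own retention against the other only-regions turned direction when the replicate 2 list of the defining remodeler was not required at 0 h (−2.83 points). Over the same changes own retention ran from −2.83 to 16.6 points, and relative retention from 0.13 to 0.45. No alternative run brought an adjusted p of the 3 tests below 0.05, but the design left little room for this. With every 12 h library kept, no exact permutation p could fall under 0.0357, which for 1 test alone adjusts to 0.107. A pass therefore needed all 3 tests at their floor. It was out of reach in the runs with a single CHD8 12 h library and in the replicate block below. Nothing is read from its absence. Replicate 1 lay above its group mean for CHD4, CHD8 and SMARCA5 and below it for SMARCA4. So few libraries can neither show nor exclude that a replicate number pairs libraries of different remodeler lines. In a replicate block the differences stayed at 43.1 points, 8.80 points and 0.38, and the exact permutation p-values were 0.0625, 0.500 and 0.250, with 0.0625 the smallest possible. Leaving out families A and B or chromosome X, added after seeing the data, gave 620 and 651 members, with 58.2% and 59.1% kept. The cause was not tested. Depth is unknown, groups of 2 libraries allow no outlier check, and membership and loss rest on called peaks.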
